A study of Mus musculus with 6 samples.

Results

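To describe growth hormone signaling in tumors that arise from *Ctnnb1* ex3 hepatocytes, the RNAseq values of 10 genes were taken from 6 liver tumors of CMRtdT mice. The genes encode the receptors for growth hormone and prolactin (*Ghr*, *Prlr*), the kinase JAK2 (*Jak2*), the transcription factors STAT5A and STAT5B (*Stat5a*, *Stat5b*), the feedback inhibitors CIS and SOCS1 to SOCS3 (*Cish*, *Socs1*, *Socs2*, *Socs3*) and the repressor BCL6 (*Bcl6*). They were chosen by name, with their TPM values in these tumors already known, and all 10 of them were found among the 35683 genes of the tables. TPM is a share of all transcripts that is corrected for transcript length and sums to the same total in every tumor, so levels of different genes were compared only in TPM.

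CMRtdT mice are *Ctnnb1* ex3/+; *MUP-uPA*; *R26* tdT males on C57BL/6. Cre deletes exon 3 of 1 *Ctnnb1* allele, which stabilizes β-catenin, and switches on tdTomato. The *MUP-uPA* transgene makes urokinase in hepatocytes and causes chronic liver damage, and its promoter comes from a major urinary protein gene, a family that itself responds to growth hormone. High-fat diet began at 6 weeks of age, AAV8-TBG-Cre, which targets hepatocytes, was given into the tail vein at 8 weeks, and visible tumors were cut out 6.5 months later. Mouse 1 and mouse 2 each gave 3 tumors under this 1 condition, and no tissue without a tumor was analysed here. A comparison between the mice therefore sets 1 animal against another. Its p-values measure only how far tumors from the same animal spread, and these are not independent animals.

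In liver, growth hormone binds its receptor, JAK2 phosphorylates STAT5A and STAT5B, and these enter the nucleus and switch on genes such as *Igf1*, *Cish* and *Socs2*. CIS and the SOCS proteins then dampen the receptor and JAK2. STAT5 also represses *Bcl6* in liver, and BCL6 is a repressor that can occupy STAT5 sites. Pulsed growth hormone in male mice and near-continuous growth hormone in females are the main source of sex differences in liver gene expression, and *Bcl6* is more abundant in the livers of males.

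The libraries held between 19130532 and 27681766 estimated counts. Tumor 1 of mouse 1 stood apart from the other 5 tumors in much of its transcriptome, as 4859 of the 12518 genes averaging 1 TPM or more (38.8%) had a tumor that was separate by Dixon's ratio, and in 96.9% of these it was this tumor. All 10 hepatocyte markers were lowest in it, with a summed level of 1274 TPM, against 21950 to 38016 TPM in the others. Albumin (*Alb*) was at 702 TPM in it, against 8348 to 16603 TPM. All 13 proliferation genes were highest in it, with a sum of 696 TPM, against 96.3 to 110 TPM. Because it is 1 of 3 tumors of mouse 1, values are given with and without it. Of all pairs of tumors from the same animal, tumors 2 and 3 of mouse 1 differed by far the least, yet by more than sampling noise. The chi-square per gene, a measure of difference in counts, was 7.76 for them. It was 73.7 to 148 for the pairs of mouse 2, and 1166 and 1297 for the pairs with tumor 1 of mouse 1. How separate tumors 2 and 3 of mouse 1 were cannot be told from these values. Fewer cells of a type and less RNA per cell cannot be told apart in these bulk samples.

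*Ghr* was by a wide margin the most abundant of the 10 genes in 5 tumors, while in tumor 1 of mouse 1 *Bcl6* was slightly above it. It measured 19.4, 279 and 294 TPM in mouse 1, in the order of tumors 1 to 3, and 206, 258 and 231 TPM in mouse 2. Its mean was 215 ± 101 TPM (SD, n = 6), and 95.7% of the genes averaging 1 TPM or more had a lower mean. Without tumor 1 of mouse 1 the mean was 254 ± 35.6 TPM (SD, n = 5), which is 13.1 times the level in that tumor. The 5 tumors with higher hepatocyte marker levels thus lay close together, and the remaining tumor lay far below them. *Ghr* lies at chr15:3317755-3583352 in GRCm38.

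*Prlr*, the receptor for prolactin and a close relative of the growth hormone receptor, was likewise low in tumor 1 of mouse 1 and was made at a lower level. It measured 1.21, 30.3 and 27.9 TPM in mouse 1 and 25.1, 20.8 and 26.5 TPM in mouse 2, and the value in tumor 1 of mouse 1 rests on 61.0 estimated counts. The mean of the other 5 tumors was 26.1 ± 3.53 TPM (SD, n = 5), 21.7 times the level in that tumor. *Ghr* over *Prlr* stayed between 8.21 and 16.1 in all 6 tumors. The low values of both receptors in tumor 1 of mouse 1 stand beside its low hepatocyte markers, and the part these have in the result was not tested.

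**Figure D1:**
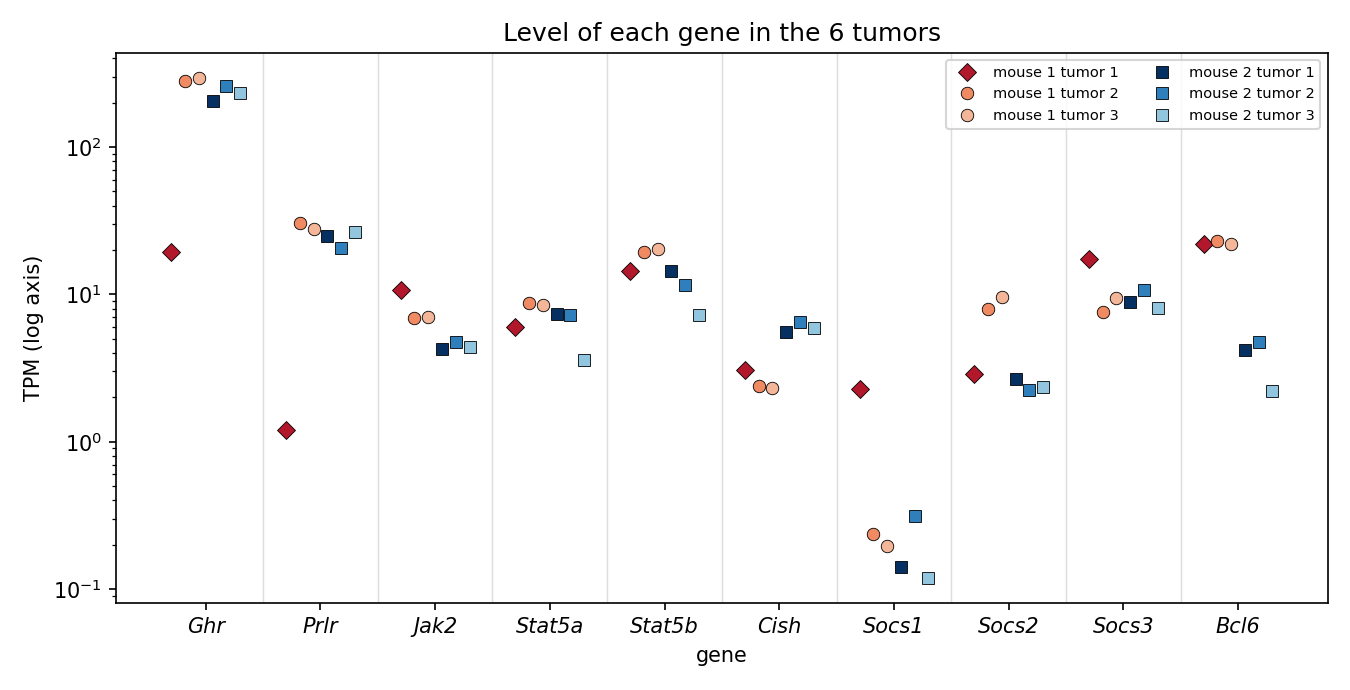
TPM of each of the 10 genes in every tumor, on a log axis, with the tumors of mouse 1 (red and orange) left of those of mouse 2 (blue). *Ghr* is the highest and *Socs1* the lowest gene in 5 tumors, tumor 1 of mouse 1 (diamond) lies far below the others for *Ghr* and *Prlr*, and *Bcl6* and *Cish* separate the mice in opposite directions.

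The mouse *Ghr* gene gives 2 main messages, one for the receptor that spans the membrane and one for the growth hormone binding protein, a secreted form with the same hormone-binding part. Both share the first 811 coding bases. The message of the receptor then goes on for a further 1142 bases, which begin with the membrane-spanning segment, whereas that of the binding protein ends after 83 bases of its own, the stop codon included. The last 30 shared bases of the GENCODE vM39 transcripts are given in lower case, and the coding bases after the split in capitals. For *Ghr-201* only the first 83 of these are shown. Bases outside the coding part can tell the forms apart in the read counts as well. The transcripts behind the counts were other versions, with 4175 bases for *Ghr-201* and 1171 for *Ghr-203*, against 4494 and 1525 in vM39.
Ghr-201 (receptor): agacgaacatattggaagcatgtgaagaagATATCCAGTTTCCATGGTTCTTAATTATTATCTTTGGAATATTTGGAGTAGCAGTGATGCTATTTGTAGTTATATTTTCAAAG
Ghr-203 (binding protein): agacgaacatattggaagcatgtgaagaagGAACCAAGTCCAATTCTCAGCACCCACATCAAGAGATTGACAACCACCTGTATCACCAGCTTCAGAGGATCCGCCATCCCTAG

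Both forms were made in every tumor. The receptor form held 52.5, 48.8 and 47.2% of *Ghr* TPM in mouse 1 and 50.02, 43.3 and 35.4% in mouse 2. The binding protein form held 38.2, 45.3 and 46.5% in mouse 1 and 45.4, 52.5 and 59.9% in mouse 2. In tumor 1 of mouse 1 both were low, with 10.2 TPM of the receptor form, against 82.0 to 139 TPM elsewhere, and 7.42 TPM of the binding protein form, against 93.5 to 139 TPM. The shares overlapped between the mice, and those of tumor 1 of mouse 1 lay outside the range of the other tumors for both forms. By estimated counts the longer receptor message took 69.5 to 82.3% of *Ghr* reads. Such splits depend on how fragments shared by the transcripts were assigned.

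*Prlr* also gives a long receptor, which can signal through JAK2 and STAT5, and short receptors that share its hormone-binding part and lack most of the tail inside the cell. The long form held 13.9 to 21.4% of *Prlr* TPM over the 6 tumors, and 6 transcripts with a shorter coding part together held 71.6 to 83.8%. In estimated counts the long form held 39.8 to 57.9%. By TPM these 6 transcripts together thus exceeded the long form in each tumor. Whether each holds the whole hormone-binding part was not tested, so their sum is not a measured share of short receptors. *Prlr-208*, with 465 coding bases, held 19.6 to 39.2% of *Prlr* TPM in tumors 2 and 3 of mouse 1 and tumors 1 and 2 of mouse 2. It took only 2.03 to 4.71% of *Prlr* reads there. In tumor 1 of mouse 1 *Prlr-212* held 62.5% of TPM, in a tumor with few *Prlr* counts. That tumor, at 16.2% for the long form, lay inside the range of the others.

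**Figure D2:**
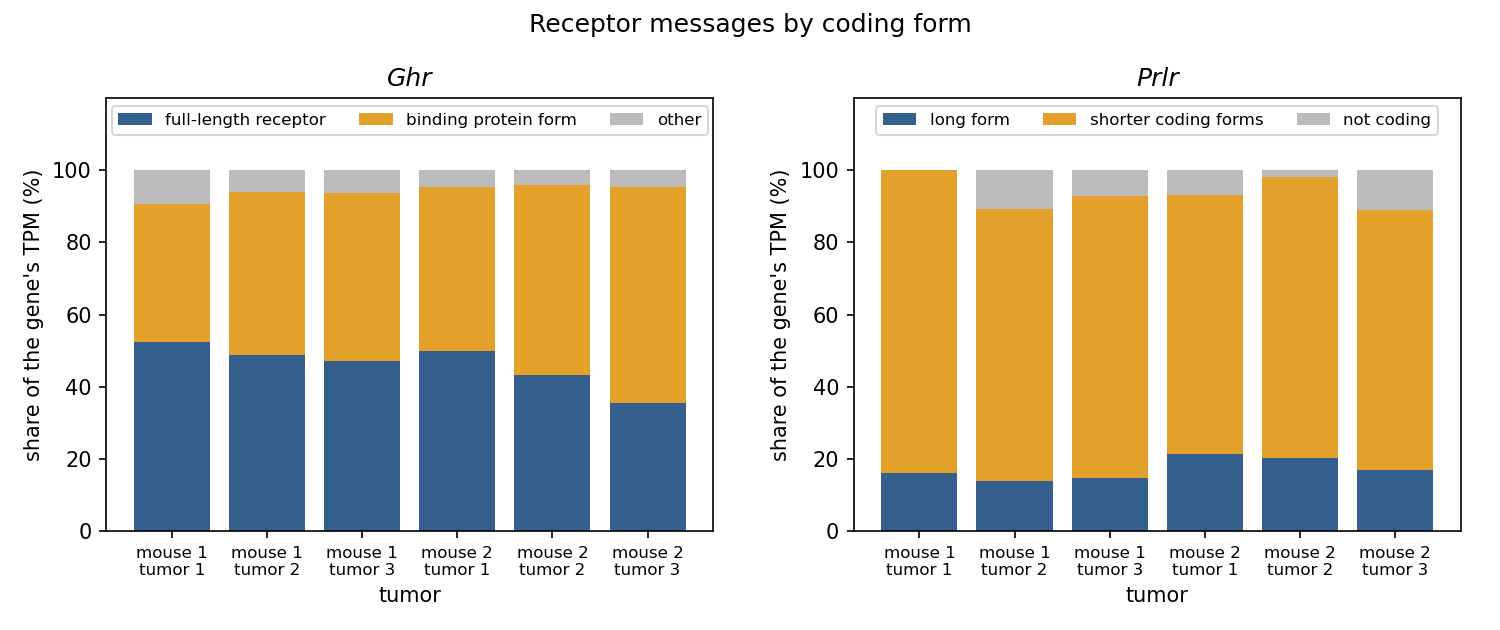
Share of the TPM of *Ghr* (left) and *Prlr* (right) held by each coding form, in percent, for the 3 tumors of mouse 1 and then the 3 of mouse 2. The receptor form of *Ghr* runs from 35.4 to 52.5% and the long form of *Prlr* from 13.9 to 21.4%, and in tumor 1 of mouse 1 both *Ghr* forms lie just outside the range of the other tumors.

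*Jak2*, the kinase bound to both receptors, was at 10.7, 6.87 and 7.05 TPM in mouse 1 and 4.26, 4.76 and 4.41 TPM in mouse 2. The 3 tumors of mouse 1 were all above those of mouse 2 in TPM. This is the usual direction on that scale, since the median difference over the 12518 genes was 0.62 in log2(TPM + 1) in favor of mouse 1 (0.42 without its tumor 1), and 41.9% of these genes had all 3 tumors of mouse 1 above all 3 of mouse 2, against 1.75% with all below. Mitochondrial transcripts took 6.85 to 8.34% of the counts in mouse 1 and 12.9 to 18.4% in mouse 2. The mice were therefore compared on counts scaled by TMM, a normalization that centers the bulk of genes, and given as CPM, counts scaled to a common library size. On that scale *Jak2* was nearly level, at 25.1, 24.9 and 24.2 CPM in mouse 1 and 23.0, 22.4 and 25.3 CPM in mouse 2.

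*Stat5b*, the main STAT5 gene of liver, was at 14.3, 19.4 and 20.3 TPM in mouse 1 and 14.5, 11.6 and 7.30 TPM in mouse 2. *Stat5a* was at 5.99, 8.71 and 8.49 TPM in mouse 1 and 7.35, 7.27 and 3.57 TPM in mouse 2. *Stat5b* exceeded *Stat5a* in all 6 tumors, by 2.40, 2.23 and 2.39 times in mouse 1 and by 1.98, 1.59 and 2.04 times in mouse 2. These genes are neighbors on chromosome 11 and near-identical over much of their coding part, so the split of reads between them is uncertain. Both were lowest in tumor 3 of mouse 2 in TPM, and unlike the receptors neither had a tumor that was separate from the rest.

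*Cish* encodes CIS, which binds activated receptors and is among the most direct STAT5 targets. It was at 3.05, 2.37 and 2.33 TPM in mouse 1 and 5.52, 6.53 and 5.87 TPM in mouse 2, and in scaled counts at 4.78, 5.45 and 5.47 CPM in mouse 1 and 18.6, 19.3 and 23.3 CPM in mouse 2. The mice did not overlap on either scale, and each mouse was tight. All 3 tumors of mouse 1 were below all of mouse 2 for 1.75% of genes in TPM and for 12.3% in scaled counts.

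*Socs2*, which also follows STAT5 activation and limits growth in mice, did not do as *Cish* did. It was at 2.87, 7.92 and 9.62 TPM in mouse 1 and 2.67, 2.24 and 2.35 TPM in mouse 2. Tumors 2 and 3 of mouse 1 were highest on both scales, with 13.6 and 14.4 CPM, against 7.18, 4.95 and 7.22 CPM in mouse 2. Tumor 1 of mouse 1 was at 2.77 CPM, the lowest of all on the scaled counts. *Socs2* over *Cish* was 0.940, 3.34 and 4.13 in mouse 1 and 0.483, 0.344 and 0.401 in mouse 2. Over all transcripts, *Socs2* thus exceeded *Cish* in tumors 2 and 3 of mouse 1 and lay below it in the other 4 tumors. In tumor 1 of mouse 1 coding transcripts held 77.7% of *Cish* TPM, against 92.7 to 97.0% in the others, and 99.5% of *Socs2* TPM. The order of these near-equal genes in that tumor therefore depends on which transcripts are counted.

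*Socs3*, induced mainly by interleukin-6 through STAT3, was at 17.4, 7.59 and 9.52 TPM in mouse 1 and 8.92, 10.6 and 8.13 TPM in mouse 2. In scaled counts it was at 23.5, 15.2 and 21.1 CPM in mouse 1 and 28.2, 29.9 and 29.8 CPM in mouse 2, so the mice overlapped in TPM and did not overlap in CPM. *Socs1*, a feedback inhibitor best known downstream of interferon, was at 2.29, 0.24 and 0.19 TPM in mouse 1 and 0.14, 0.31 and 0.12 TPM in mouse 2. Outside tumor 1 of mouse 1, with 112 estimated counts, *Socs1* rested on 7 to 18 counts per tumor, which is too few to rank the other 5 tumors. In TPM both were highest in tumor 1 of mouse 1, the tumor where the receptors were lowest, whereas in scaled counts *Socs3* in that tumor was below all 3 tumors of mouse 2.

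*Bcl6* ran opposite to *Cish*. It was at 21.9, 23.1 and 21.9 TPM in mouse 1 and 4.19, 4.73 and 2.20 TPM in mouse 2, with means of 22.3 ± 0.685 TPM in mouse 1 and 3.71 ± 1.33 TPM in mouse 2 (SD, n = 3 each). In scaled counts it was at 39.6, 65.0 and 61.7 CPM in mouse 1 and 17.1, 16.9 and 10.3 CPM in mouse 2. All 3 tumors of mouse 1 were above all of mouse 2 on both scales, and tumor 1, the tumor with few hepatocyte transcripts, shared the level of its neighbors in TPM. Over all genes, 41.9% were above in this way in TPM and 13.9% in scaled counts. *Bcl6* over *Cish* was 7.18, 9.72 and 9.40 in mouse 1 and 0.759, 0.725 and 0.374 in mouse 2. This ratio does not depend on the scaling between libraries. Lymphocytes are another known source of *Bcl6*, and the summed level of 10 T and NK cell markers was 0.606, 11.4 and 12.6 TPM in mouse 1 and 3.81, 8.59 and 4.90 TPM in mouse 2, with *Cd3d*, *Cd3e* and *Cd8a* listed at 0 in tumor 1 of mouse 1. The sum of 6 B and plasma cell markers was 1.30, 6.51 and 6.86 TPM in mouse 1 and 3.51, 4.34 and 2.64 TPM in mouse 2. Tumor 1 of mouse 1, with the fewest lymphocyte transcripts, was level with its neighbors for *Bcl6* in TPM and below them in scaled counts, and the part of lymphocytes in the difference between the mice was not tested.

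**Figure D3:**
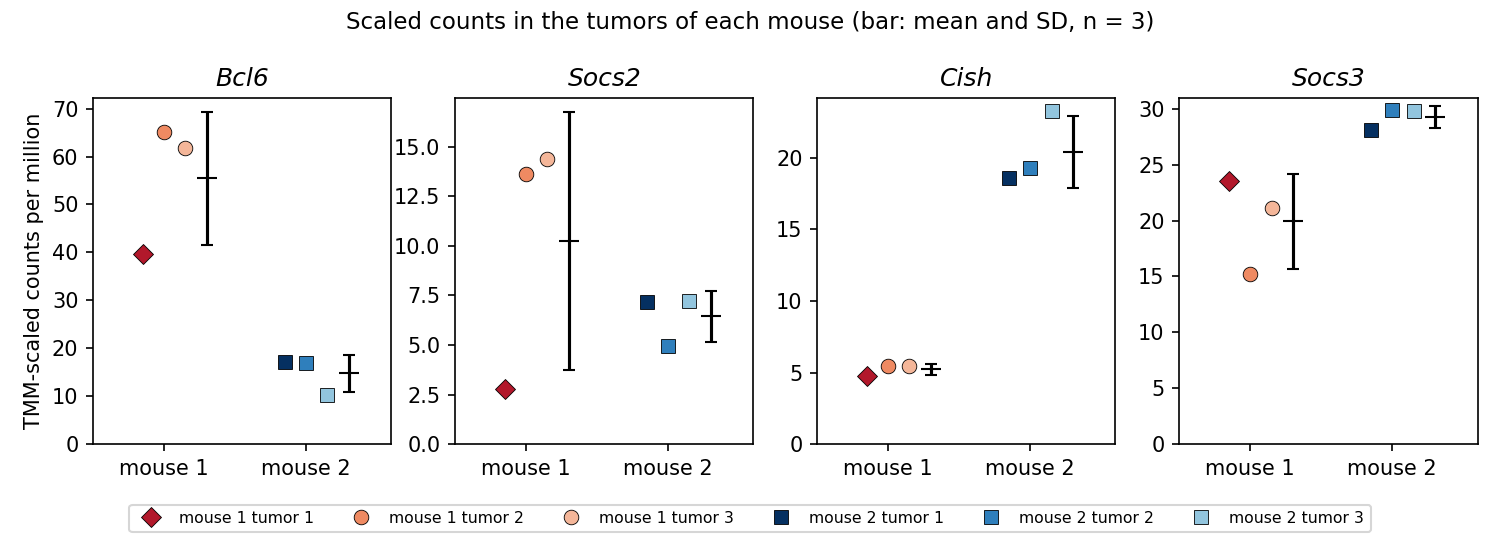
TMM-scaled counts (CPM) of *Bcl6*, *Socs2*, *Cish* and *Socs3* in the tumors of mouse 1 (left in each panel) and mouse 2 (right), with the mean and SD (n = 3) beside each group. *Bcl6* runs from 39.6 to 65.0 in mouse 1 and from 10.3 to 17.1 in mouse 2, *Cish* from 4.78 to 5.47 and from 18.6 to 23.3, and for *Socs2* tumor 1 of mouse 1 lies below all others.

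Ordered by the mean of the 5 tumors other than tumor 1 of mouse 1, the levels ran *Ghr*, *Prlr*, *Stat5b*, *Bcl6*, *Socs3*, *Stat5a*, *Jak2*, *Socs2*, *Cish* and *Socs1*. *Ghr* was 9.72 times *Prlr*, *Prlr* was 1.79 times *Stat5b*, and *Cish* was 22.5 times *Socs1*, and the ranges of these neighbors over the 5 tumors did not overlap. From *Stat5b* down to *Cish* each gene overlapped the next in the order, so these 7 are not ranked beyond their spread.

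The comparison of the mice was then fitted over all genes with edgeR's quasi-likelihood test, as log2 of mouse 1 over mouse 2. Since the 10 genes were chosen with their values known, these results describe them and are not independent evidence. With all 6 tumors none of the 13268 genes tested passed an adjusted p of 0.05 in edgeR, so 0% were called higher and 0% lower, although 1449 had an unadjusted p under 0.05. limma-voom called 0 in either direction as well, with 708 genes under an unadjusted 0.05, while DESeq2 called 69 higher (0.520%) and 133 lower (1.00%). *Bcl6* had a log2 fold change of 1.90 ± 0.33 (SE), 3.74-fold higher, with an unadjusted p of 0.00103 and an adjusted p of 0.412 in edgeR. *Cish* had a log2 fold change of -1.96 ± 0.27 (SE), 3.89-fold lower, with an unadjusted p of 0.000293 and an adjusted p of 0.412. DESeq2 called these 2 and none of the other 8, at an adjusted p of 0.000114 for *Bcl6* and 5.66e-14 for *Cish*. In edgeR the other 8 genes had log2 fold changes between -1.13 (*Prlr*) and 1.13 (*Socs1*) and adjusted p from 0.488 (*Socs3*) to 0.975 (*Stat5b*).

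Without tumor 1 of mouse 1, edgeR tested 13374 genes and called 112 higher (0.837%) and 56 lower (0.419%) in mouse 1. This leaves 2 tumors of mouse 1 against 3 of mouse 2. Those 2 were the pair that differed least, so the spread within mouse 1 rests on near-alike tumors. The adjusted p-values without tumor 1 of mouse 1 are to be read with that limit. *Bcl6* then rose to 4.26 times its level in mouse 2, a log2 fold change of 2.09 ± 0.24 (SE) with an adjusted p of 0.0320. *Cish* fell by 1.90 on the log2 scale (SE 0.19), with an adjusted p of 0.0239. With the same 5 tumors DESeq2 called 4.39% of genes higher and 5.85% lower, and limma-voom 2.24% higher and 1.32% lower. *Socs2* had a log2 fold change of 1.12 ± 0.24 (SE) with an adjusted p of 0.0810 in edgeR, and it passed in DESeq2 (adjusted p 0.00324) and limma-voom (0.0499). *Socs3* had a log2 fold change of -0.69 ± 0.18 (SE) with an adjusted p of 0.118 in edgeR, and it passed in DESeq2 (0.0305). *Ghr* was at -0.11 ± 0.14, *Jak2* at 0.06 ± 0.13, *Stat5a* at 0.00 ± 0.27 and *Stat5b* at 0.24 ± 0.24 (log2 fold change, SE). Each of these was closer to 0 than the values of *Bcl6*, *Cish*, *Socs2* and *Socs3*. *Prlr*, at -0.56 ± 0.30, was not far from *Socs3*, and *Socs1* was at -0.37 ± 0.55.

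In scaled counts the tumors of mouse 1 were all above those of mouse 2 for *Bcl6* and all below for *Ghr*, *Cish* and *Socs3*, and the other 6 genes overlapped. Over all genes tested 13.9% were above and 12.3% below in this way. The 1 and 3 of 10 genes are to be read against those shares, and nothing particular to the 10 genes follows from them.

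**Figure D4:**
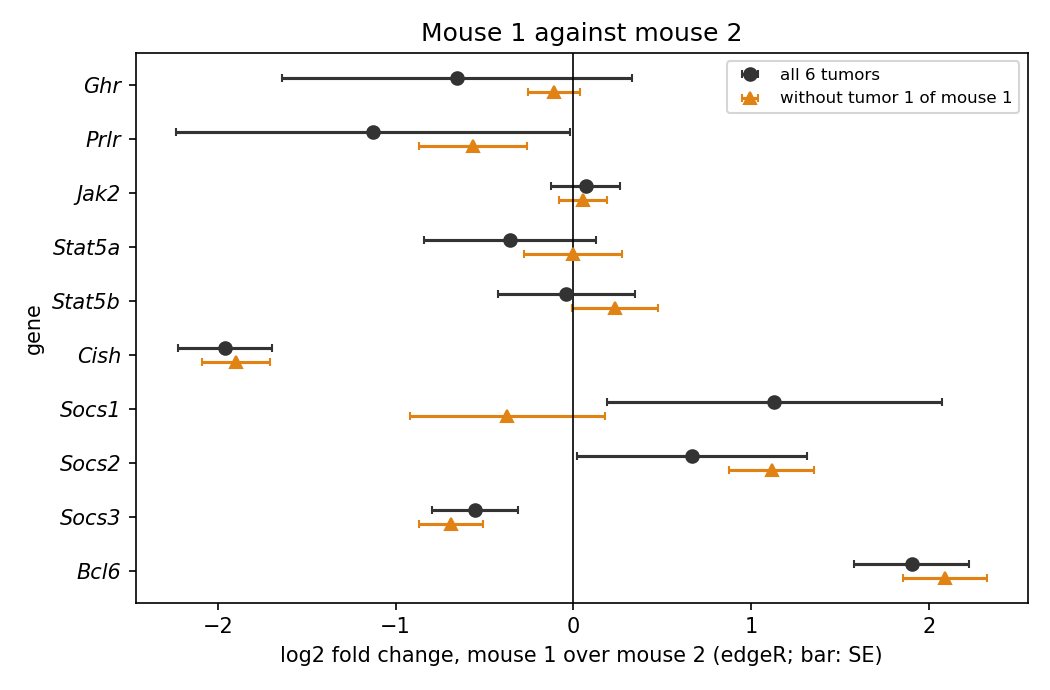
Log2 fold change of mouse 1 over mouse 2 from edgeR with its SE for each gene, with all 6 tumors (circles) and without tumor 1 of mouse 1 (triangles). *Bcl6* (1.90 and 2.09) and *Cish* (-1.96 and -1.90) stay on their sides in both fits, the bars of *Ghr* and *Prlr* shrink without that tumor, and *Socs1* is at 1.13 with all tumors and at -0.37 without it.

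Promoters were searched for the palindrome TTCNNNGAA, the core of STAT5 sites, on both strands, from 250 bases before to 50 after each RefSeq start site in GRCm38.p6. Of the 10 genes 9 had an entry, with 15 start sites, and *Socs2* had none. A match was found at 5 start sites of 4 genes (*Cish*, *Socs3*, *Prlr* and *Bcl6*), while 8.30% of all 32851 promoters hold one. The narrower TTCCTNGAA, every match of which is also a TTCNNNGAA match, occurs in 1.59% of promoters. The promoters of *Cish*, *Socs3* and *Bcl6*, which hold a match and did not overlap between the mice in scaled counts, are shown 5′ to 3′ on the strand of the gene, with 250 bases before and 30 from the start site, and with the matches in capitals.
Cish (chr9:107296409-107296688, + strand): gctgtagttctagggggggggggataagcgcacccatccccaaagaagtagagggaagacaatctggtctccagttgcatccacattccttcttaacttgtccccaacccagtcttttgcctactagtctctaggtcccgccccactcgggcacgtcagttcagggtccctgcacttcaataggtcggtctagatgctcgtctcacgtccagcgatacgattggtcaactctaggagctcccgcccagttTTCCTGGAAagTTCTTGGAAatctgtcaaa
Socs3 (chr11:117969337-117969616, - strand): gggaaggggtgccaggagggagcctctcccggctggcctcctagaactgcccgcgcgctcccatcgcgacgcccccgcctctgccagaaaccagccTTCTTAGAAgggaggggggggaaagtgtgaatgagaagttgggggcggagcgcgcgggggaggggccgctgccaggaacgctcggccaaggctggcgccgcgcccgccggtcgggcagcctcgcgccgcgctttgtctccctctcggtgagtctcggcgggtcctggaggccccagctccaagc
Bcl6, first start site (chr16:23988823-23989102, - strand): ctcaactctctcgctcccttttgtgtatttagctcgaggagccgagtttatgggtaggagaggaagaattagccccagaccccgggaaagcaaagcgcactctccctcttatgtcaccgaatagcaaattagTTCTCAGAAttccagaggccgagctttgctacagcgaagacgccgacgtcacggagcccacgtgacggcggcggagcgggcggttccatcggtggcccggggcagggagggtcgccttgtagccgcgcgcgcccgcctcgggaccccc
Bcl6, second start site (chr16:23981254-23981533, - strand): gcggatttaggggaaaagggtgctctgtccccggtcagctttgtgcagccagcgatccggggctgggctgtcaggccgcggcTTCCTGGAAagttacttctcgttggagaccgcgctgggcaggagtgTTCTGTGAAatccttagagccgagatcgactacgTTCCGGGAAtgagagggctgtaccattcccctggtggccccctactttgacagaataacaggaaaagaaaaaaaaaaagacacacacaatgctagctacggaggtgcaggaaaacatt

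With the first transcribed base as 1 and the base before it as -1, *Cish* held 2 matches, TTCCTGGAA beginning at 1 and TTCTTGGAA beginning at 12. *Socs3* held TTCTTAGAA at -154. *Bcl6* held TTCTCAGAA at -118 of its first start site and 3 matches before its second, TTCCTGGAA at -168, TTCTGTGAA at -122 and TTCCGGGAA at -88. *Bcl6* and *Cish*, which differ in direction between the mice, both carry the palindrome, but a match was a condition for showing a promoter. *Ghr* did not overlap in scaled counts either and held no match, whereas *Prlr* held a match and overlapped. A match is a description of the sequence and not evidence of binding. CTTTGA, the core bound by the TCF partners of β-catenin, was found at 4 of the 15 start sites, and 5257 of the 32851 promoters hold it.

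The further genes of the pathway were described by lists, also chosen with earlier results of these data known. No gene of any of these lists passed the edgeR test between the mice with 6 tumors or with 5, so medians are given beside the median log2 fold change over all genes of 0.04 with 6 tumors and -0.01 with 5. DESeq2 called none with 6 tumors. With 5 it called *Ptpn11*, *Zbtb7a*, *Zbtb16*, *Slco1a1* and *Mup20* higher (log2 fold changes 0.54 to 2.60, adjusted p 9.49e-05 to 0.0157) and *Eloc*, *Lifr* and *Hao2* lower (-2.02 to -0.76, adjusted p 0.00339 to 0.0357), against 4.39% higher and 5.85% lower among all genes. Of these *Zbtb7a*, *Zbtb16*, *Slco1a1* and *Hao2* are named after their values were seen. Of 8 other JAKs and STATs, 7 were tested, with a median of -0.24 with 6 tumors and 0.02 with 5. *Jak1*, the kinase of interleukin-6 and interferon receptors, was at 21.3, 32.2 and 31.5 TPM in mouse 1 and 18.1, 23.7 and 14.9 TPM in mouse 2. *Stat3*, the mediator of interleukin-6, was at 21.9, 26.0 and 28.2 TPM in mouse 1 and 19.4, 20.3 and 17.3 TPM in mouse 2. In every tumor *Stat3* was thus above *Stat5b*.

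The 8 other SOCS genes and parts of the SOCS box ubiquitin ligase had a median of 0.15 with 6 tumors and -0.21 with 5, and all 8 were highest in TPM in tumor 1 of mouse 1. *Eloc*, an elongin that bridges the SOCS box to the ligase, measured 255 TPM in that tumor and 75.8 to 128 TPM in the rest. *Socs5*, chosen after its values were seen, measured 17.0 TPM in that tumor and 0.53 to 1.70 TPM in the rest. In TPM, the scale on which most genes lean towards mouse 1, *Socs1*, *Socs3* and the 4 others measured were highest in this tumor, while *Cish* and *Socs2* lay inside the range of the remaining tumors.

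The 11 phosphatases, adaptors and PIAS proteins had a median of 0.05 with 6 tumors and 0.12 with 5. *Ptpn11*, the phosphatase SHP2, was at 26.7, 26.1 and 27.1 TPM in mouse 1 and 11.9, 12.8 and 11.4 TPM in mouse 2 (log2 fold change 0.61 ± 0.14 with 5 tumors, adjusted p 0.0909 in edgeR). Of 14 other receptors that signal through JAKs, 13 were tested, with a median of -0.08 with 6 tumors and 0.23 with 5. *Ifnar2*, a subunit of the type I interferon receptor, was at 20.2 TPM in tumor 1 of mouse 1, against 58.4 to 92.8 TPM in the others, and *Lifr*, the receptor for leukemia inhibitory factor, was at 4.96 TPM, against 39.5 to 60.4 TPM. *Lepr*, the leptin receptor, went the other way, at 99.0 TPM, against 0.50 to 22.4 TPM. The drop of *Ghr* and *Prlr* in this tumor was therefore shared by some cytokine receptors and not by all.

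The 9 cofactors and relatives of BCL6 had a median of 0.34 with 6 tumors and 0.37 with 5. *Ncor1*, a corepressor that BCL6 recruits, was at 62.7, 29.6 and 36.0 TPM in mouse 1 and 20.3, 19.7 and 18.0 TPM in mouse 2. *Hdac3*, the deacetylase of the same complex, was at 58.8, 20.3 and 25.1 TPM in mouse 1 and 21.8, 23.6 and 22.2 TPM in mouse 2. *Ncor1* was above in all 3 tumors of mouse 1 in TPM, as 41.9% of genes were, and *Hdac3* overlapped. Neither had a fold change as large as that of *Bcl6*.

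Of the targets that carry the growth hormone signal out of the liver, *Igf1* was at 26.9, 61.8 and 72.5 TPM in mouse 1 and 37.2, 66.2 and 107 TPM in mouse 2. *Igfals*, the acid-labile subunit that holds IGF1 in the circulation, was at 0.83, 30.6 and 28.1 TPM in mouse 1 and 25.4, 23.4 and 37.1 TPM in mouse 2. *Igfbp3*, the binding protein of the same complex, was at 21.4, 6.78 and 7.99 TPM in mouse 1 and 3.24, 7.30 and 2.27 TPM in mouse 2. *Igfals* thus followed *Ghr* in being far lower in tumor 1 of mouse 1, *Igf1* was lowest there by less, and *Igfbp3* was highest there.

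Liver genes that differ between the sexes are a readout of the growth hormone pattern. Of 18 male-biased genes 15 averaged 1 TPM or more, as did 13 of 26 female-biased genes. *Cyp2d9*, a male cytochrome P450, was at 34.2, 1473 and 1477 TPM in mouse 1 and 467, 1088 and 761 TPM in mouse 2. *Mup20*, the male pheromone darcin, was at 488, 6977 and 6938 TPM in mouse 1 and 272, 1290 and 941 TPM in mouse 2, with reads that near-identical *Mup* genes can share. *Gstp1* was at 511 TPM in tumor 1 of mouse 1, against 2157 to 4907 TPM in the others, and *Nudt7* at 29.8 TPM, against 177 to 356 TPM. By contrast *Hsd3b5*, a male-specific steroid dehydrogenase chosen after its values were seen, did not exceed 0.22 TPM in any tumor. The male-biased list had a median log2 fold change of -0.18 with 6 tumors and 0.35 with 5. Its genes went both ways between the mice, with 7 of 15 tested above 0 with 6 tumors and 9 of 16 with 5.

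Among female-biased genes, some of which BCL6 represses in male liver, *Cyp2a4* was at 7.32, 704 and 691 TPM in mouse 1 and 48.6, 486 and 45.8 TPM in mouse 2, although reads of *Cyp2a4* are hard to tell from those of its close relative *Cyp2a5*. *Cyp2b9* was at 0.50, 46.6 and 43.6 TPM in mouse 1 and 0.89, 5.95 and 18.4 TPM in mouse 2. *Fmo2* was at 0.41, 24.9 and 22.2 TPM in mouse 1 and 18.3, 9.23 and 38.0 TPM in mouse 2. *Cd36*, a fatty acid transporter, was at 8.25, 269 and 272 TPM in mouse 1 and 185, 213 and 130 TPM in mouse 2. In TPM *Cyp2a4* and *Cyp2b9* were thus highest in tumors 2 and 3 of mouse 1. They were lowest in tumor 1 of mouse 1, the tumor with the lowest hepatocyte markers, and any part of BCL6 in these levels was not tested. Most of the list went the other way between the mice. Of the 15 genes tested, 3 had a log2 fold change above 0 with 6 tumors and 5 with 5 tumors. The transcription factor CUX2, specific to female liver, and TRIM24 had messages that were highest in tumor 1 of mouse 1 (*Cux2* at 7.40 TPM, against 0.00 to 0.23 TPM, and *Trim24* at 28.3 TPM, against 9.36 to 10.9 TPM). The list had a median log2 fold change of -0.89 with 6 tumors and -0.45 with 5 over the 15 genes tested, and edgeR called no gene of it.

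**Figure D5:**
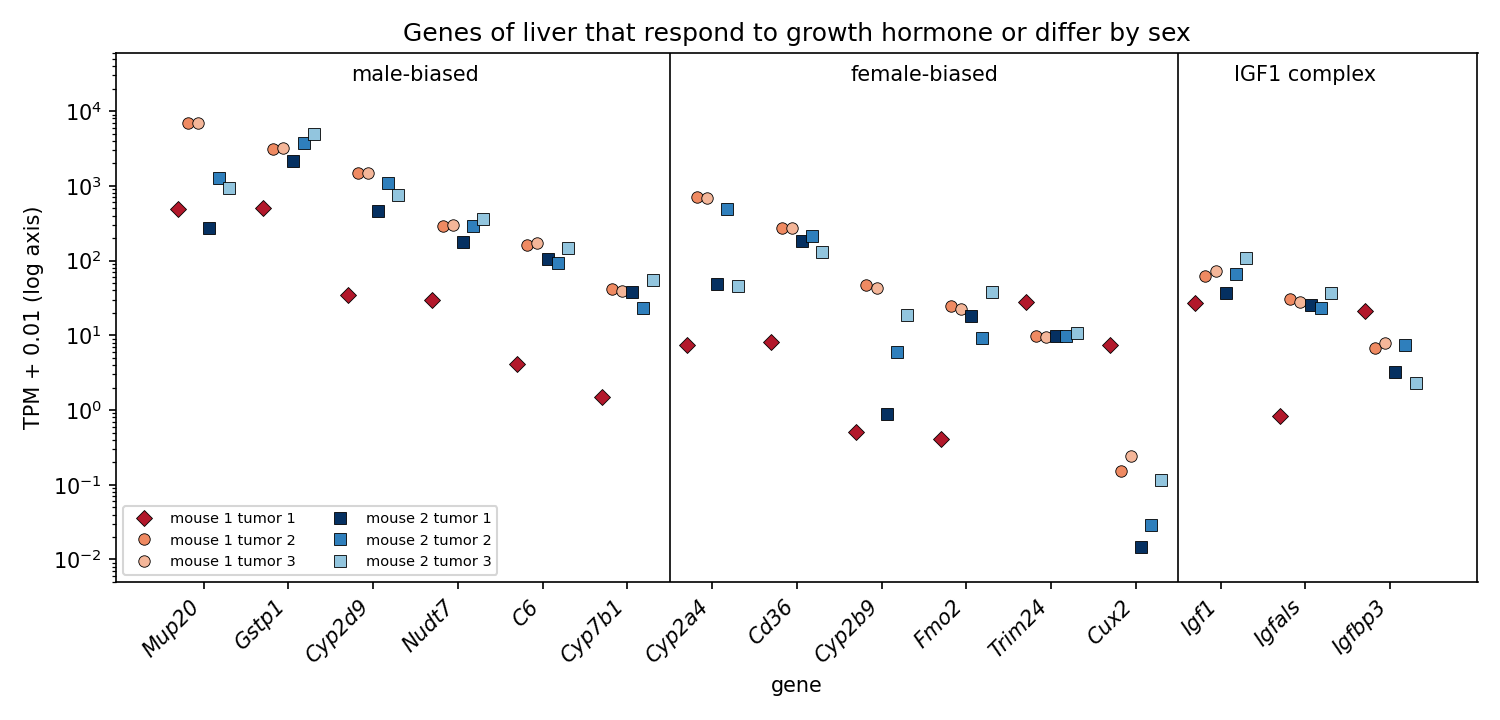
TPM plus 0.01 on a log axis of male-biased genes, female-biased genes and the IGF1 complex in the 3 tumors of mouse 1 (red and orange) and the 3 of mouse 2 (blue). Tumor 1 of mouse 1 (diamond) is lowest for most, as for *Cyp2d9* (34.2 TPM) and *Igfals* (0.83 TPM), and highest for *Trim24*, *Cux2* and *Igfbp3*.

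Genes with the most similar pattern were sought among 12081 named genes by the root mean square distance of log2(TPM + 1), centered over the 6 tumors. *Ghr* was closest to *Kif21a* (distance 0.10) and *Nrn1* (0.10), *Prlr* to *Fam169b* (0.10) and *Gstt2* (0.11), and *Jak2* to *Golga2* (0.04) and *Hnrnpf* (0.05). *Stat5a* was closest to *Gsta4* (0.06) and *Cdipt* (0.06), and *Stat5b* to *Clstn3* (0.08) and *Unc93b1* (0.10). *Cish* was closest to *H1f2* (0.17) and *S100a10* (0.17), and *Socs2* to *Cpeb2* (0.17) and *Cbx7* (0.17). *Socs3* was closest to *Taf13* (0.06) and *C1d* (0.08), and *Socs1* to *Pdzd11* (0.04) and *Bcas2* (0.06). *Socs1* lay at 0.12 to 0.31 TPM outside tumor 1 of mouse 1, so the added 1 flattens its pattern. In that tumor *Socs1* was 11.4 times the mean of the other 5. *Pdzd11* was at 64.0 TPM there, against 20.8 to 26.5 TPM, so the small distance is not a like fold change. *Bcl6* had no close neighbor, since the nearest, *Lmcd1* (0.33) and *Sptb* (0.42), were at 14.3 and 7.47 TPM in tumor 1 of mouse 1, against 7.46 and 3.95 TPM in tumor 2. In TPM and by this distance, its pattern thus had the least close neighbors of the 10. The 3 tumors of mouse 1 were level on that scale only, at 39.6, 65.0 and 61.7 CPM in scaled counts. All 3 were above all of mouse 2, as for 41.9% of genes in TPM and 13.9% in scaled counts.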

How the data were processed

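RNA of 6 excised CMRtdT liver tumors, 3 from each of 2 mice, was sequenced after poly A enrichment, and no tumor was left out. The authors deposited a table per tumor with estimated counts and TPM for each Ensembl mouse transcript, in the layout of Salmon (version 1.5.1 in the paper's software list). The deposited estimated counts were not normalized, and the deposited TPM values were scaled by effective length and depth. GRCm38, BWA and Picard are named in the submitters' processing notes. The release of the transcript index was not given in sources used here.

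Transcript IDs were looked up in GENCODE vM39 (GRCm39, for names and coding lengths), where 114813 of 116546 matched, the others holding 0.373 to 0.680% of counts, and were summed per gene. Gene positions and promoters came from RefSeq tables of GRCm38.p6. The members and the 18 further gene lists were chosen with earlier results of these data known, and nothing here is independent of them. Named are the 10 genes, the 2 to 4 genes of the highest mean TPM of each pathway list, the 4 highest of each sex-biased list and those with a tumor that stood apart, and the 2 nearest patterns of each gene. Some of these are not reported here, and further genes are marked as chosen after their values were seen.

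Estimated counts were rounded and mouse 1 over mouse 2 was fitted with edgeR 4.0.16 (quasi-likelihood, TMM, filterByExpr, two-sided, Benjamini-Hochberg, threshold 0.05), with DESeq2 1.42.0 and limma-voom (limma 3.58.1) as alternatives, besides other scalings, no filter, coding transcripts only, a tumor number block and each tumor left out. TMM moved log2 fold changes by -0.48 with 6 tumors, relative to library size alone, and by -0.26 with 5. Levels are TPM with SD. Dixon's ratio on log2(TPM + 1) has a critical value of 0.625 for 6 tumors. Fits were tested on simulated data. A count of 0 allows up to 3 counts, for counting error only. Fits ran in R 4.3.3, tables in pandas 2.3.3 under Python 3.11.15 (with numpy 2.4.6), and plots in matplotlib 3.10.9.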

Additional observations from a re-analysis of the deposited data

Results flagged for a closer look

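*Ghr* and *Prlr* each had 1 tumor far from the rest. Tumor 1 of mouse 1 was lowest, and its gap to the nearest tumor was 0.867 of the whole range of log2(TPM + 1) for *Ghr* and 0.864 for *Prlr*, above Dixon's critical value for 6 tumors. Chance passes this value in about 1 of 20 groups, and 38.8% of the 12518 genes averaging 1 TPM or more passed it here, mostly through the same tumor. The 10 hepatocyte markers of this tumor were also the lowest, and their part in the result was not tested.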

How the results depend on the processing

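Between the mice, the count of genes called was 0 in either direction with edgeR under each scaling, filter and transcript set tried with 6 tumors, and 69 higher and 133 lower with DESeq2. Leaving out 1 tumor at a time gave 0 to 112 higher and 0 to 56 lower, and all of these calls came without tumor 1 of mouse 1. Without that tumor DESeq2 called 587 higher and 782 lower, limma-voom 300 and 177, and edgeR with library size alone 131 and 20. Tumors with the same number were not alike (correlations of deviations 0.03, -0.04 and 0.05), so the numbers do not pair them, and with tumor number as a replicate block 0 genes were called, *Bcl6* was at 1.91 (adjusted p 0.630 in edgeR) and *Cish* at -1.96 (0.594).

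*Bcl6* and *Cish* kept their direction under every alternative run. Library size alone turned *Stat5b* to 0.36 and *Socs3* to 0.0037 with 6 tumors. Leaving out 1 tumor at a time, *Stat5b* ran from -0.21 to 0.24 and *Socs1* from -0.37 to 1.53. Without tumor 1 of mouse 1, *Ghr* was at 0.15 with library size alone, *Stat5a* at 0.0040 with DESeq2, 0.030 with limma-voom and 0.23 with library size alone, *Stat5b* at 0.24, 0.27 and 0.48 in the same order, and *Socs1* at -0.37, -0.33 and -0.14. The cause was not tested, and all of these are log2 fold changes of mouse 1 over mouse 2 that passed no test. *Socs1* is limited by depth, with 7 to 18 counts in 5 tumors.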
